A study of Mus musculus with 9 samples.

Results

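The genes described here are 10 genes that cut or protect the extracellular matrix: the matrix metalloproteinases *Mmp2*, *Mmp3*, *Mmp10* and *Mmp14*, the tissue inhibitors of metalloproteinases *Timp1*, *Timp2* and *Timp3*, and the secreted proteinases *Adamts1*, *Adamts2* and *Adamts5*. They were taken by symbol, and all 10 are present in each of the 3 deposited tables, which hold 14819 genes (Nrf1 against LacZ), 14986 genes (Nrf2 against LacZ) and 14908 genes (Nrf2 against Nrf1). The cells were NRVMs, ventricular cardiomyocytes prepared from Sprague-Dawley rats aged 1 or 2 days, and the reads were aligned to the rat genome although the sample record names mouse. All cells received an adenovirus at an MOI of 50, 48 h after plating, and RNA was collected 48 h after infection. The virus carried LacZ (bacterial β-galactosidase, the control), mouse Nrf1 or mouse Nrf2 behind a CMV promoter in a vector that also encodes a red fluorescent protein. LacZ cells therefore went through the same infection as the others. There were 3 libraries in each of the 3 groups.

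Each table gives 1 value per group and gene, the authors' mean over the libraries of normalized read counts. The values of single libraries were not used here, so no SD, no p-value and no test between groups is given, and a mean could be carried by 1 of the libraries of its group. Each pair of groups was normalized on its own, and means were compared only within a table. A gene was counted as higher or lower when its 2 group means differed by over 1.5-fold, the fold cutoff in the study's methods. The lowest means recur at steps that read as 1 read in 1 library, and from these steps the approximate number of reads behind each mean was obtained. Intervals given with a ratio are 95% Clopper-Pearson intervals on those reads. They cover counting error only and are narrower than an interval that includes the spread between libraries would be. The group mean of *Nfe2l2*, the gene of Nrf2, was 3475 with LacZ and 75066 with Nrf2, where reads of the mouse transgene and of the rat gene cannot be told apart. *Nfe2l1*, the gene of Nrf1, was not analysed here, so the Nrf1 label was not checked in this way.

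Matrix metalloproteinases are zinc enzymes made as inactive precursors that must be cleaved before they work. MMP14 sits in the cell membrane and, with TIMP2 as the bridge, cuts the precursor of MMP2, a gelatinase. MMP3 and MMP10 are the stromelysins, enzymes with a broad range of matrix substrates that also activate other metalloproteinase precursors. ADAMTS1 and ADAMTS5 cut large proteoglycans such as versican and aggrecan, whereas ADAMTS2 removes the amino-terminal propeptide of fibrillar procollagens. TIMP1 to TIMP3 block metalloproteinases, and TIMP3, which binds to the matrix, also inhibits several ADAMTS enzymes. In the heart these genes are known for their part in remodeling of the matrix after injury, and fibroblasts are a major source of many of them.

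With Nrf1, 8 of the 10 genes were over 1.5-fold lower than in LacZ samples and 0 were higher. Among the 11453 genes of that table whose higher mean was at least 10, 18.1% were lower by that margin and 11.9% were higher. The median log2 ratio of the 10 genes was -1.37, beside 0.00181 for all those genes. The 10 genes were chosen with earlier results of these data known, so these contrasts describe them and are not a test. *Timp3* and *Adamts1* were the members within 1.5-fold. With Nrf2, 3 of the 10 genes were lower (10.9% of 11630 genes) and 2 were higher (9.78%), with a median of -0.37 beside -0.00323 for all genes. The genes lower with Nrf2 were *Mmp14*, *Mmp2* and *Adamts1*, and those higher were *Mmp3* and *Mmp10*. The calls of *Mmp2* and *Adamts1* sit at the limit: their counting intervals, 1.49- to 1.54-fold and 1.49- to 1.60-fold lower, include it. When Nrf2 samples were set against Nrf1 samples in their own table, 5 genes were higher with Nrf2 (12.3% of 11514 genes) and 1, *Adamts1*, was lower (5.16%). With a limit of 2-fold, 6 of the 10 genes were lower with Nrf1 (9.8% of all genes with a mean of at least 10) and 0 were higher (4.23%). With Nrf2, 1 was lower (4.27%) and 2 were higher (4.68%), and in Nrf2 over Nrf1 4 were higher (5.86%) and 0 lower (1.23%). Because both comparisons with LacZ use the same LacZ libraries, they are not independent of each other.

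**Figure D1:**
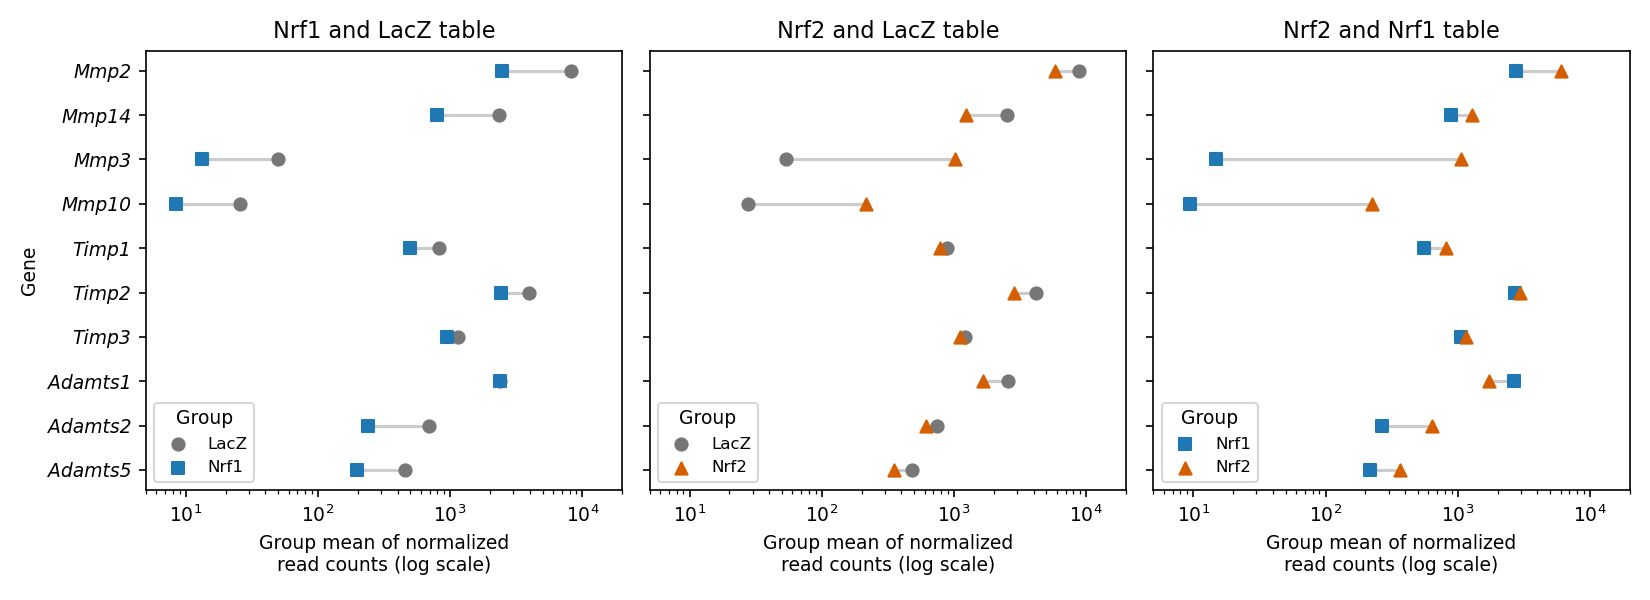
Authors' group means of normalized read counts (log axis) for the 10 genes, with 1 panel for each deposited table and 1 point for each group; a grey line joins the 2 means of a gene. *Mmp3* and *Mmp10* lie left of LacZ with Nrf1 and right of LacZ with Nrf2, while most other genes lie left of LacZ with either factor.

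*Mmp2* had a mean of 8264 with LacZ and 2459 with Nrf1, 3.36-fold lower (log2 ratio -1.75). Of the 11453 genes, 309 had a lower ratio. With Nrf2 the means were 8825 and 5822, 1.52-fold lower (log2 ratio -0.60), which is just past the 1.5-fold limit. In the direct comparison *Mmp2* was 2.21-fold higher with Nrf2 than with Nrf1 (counting interval 2.15 to 2.26), so the 3 groups were ordered LacZ, Nrf2, Nrf1 from high to low. About 7730 reads stood behind the Nrf1 mean and about 23948 behind that of LacZ, so counting error was small.

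*Mmp14*, whose product activates the MMP2 precursor, followed the same order. The mean was 2349 in LacZ and 801 in Nrf1 samples, 2.93-fold lower. It was 2509 in LacZ and 1234 in Nrf2 samples, 2.03-fold lower, which made it the most reduced of the 10 genes with Nrf2. Nrf2 samples exceeded Nrf1 samples by 1.43-fold, inside the 1.5-fold limit, with a counting interval of 1.36 to 1.51 that reaches it. *Timp2*, the inhibitor that links these proteinases, differed less between groups than either of them with Nrf1. Its mean was 3919 in LacZ and 2443 in Nrf1 samples, 1.60-fold lower. With Nrf2 the mean went from 4185 to 2832, 1.48-fold lower and just inside the limit. Nrf1 and Nrf2 samples differed by 1.08-fold.

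The stromelysins had opposite ratios with the 2 factors. *Mmp3* had a mean of 50.1 with LacZ and 13.3 with Nrf1, 3.78-fold lower (log2 ratio -1.92). These means rest on about 145 and 42 reads, which gave a counting interval of 0.185 to 0.379 for the ratio of Nrf1 to LacZ. With Nrf2 the mean was 1018, against 53.6 with LacZ, 19.0-fold higher (log2 ratio 4.25, counting interval of the ratio 16.1 to 22.7). Of the 11630 genes, 50 had a higher ratio, among them genes listed at 0 in LacZ. Set directly against each other, the means were 14.8 with Nrf1 and 1058 with Nrf2, a ratio of 71.5 (counting interval 52.4 to 98.7). The 3 groups were thus ordered Nrf2, LacZ, Nrf1 from high to low, and the counting intervals of the ratios did not reach 1.

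*Mmp10* showed the same order at lower counts. Its mean was 25.9 in LacZ and 8.48 in Nrf1 samples, 3.05-fold lower, from about 75 and 27 reads (counting interval of the ratio 0.205 to 0.521). No other mean of a member rested on fewer reads. In Nrf2 samples the mean was 217, against 27.6 in LacZ, 7.86-fold higher (counting interval 6.19 to 10.1), with 87 of 11630 genes at a higher ratio. The direct ratio of Nrf2 to Nrf1 was 23.9 (counting interval 16.1 to 36.0). The ratio of *Mmp3* to *Mmp10* was 2.42 times that of LacZ samples with Nrf2. It was 0.807 times with Nrf1, where the counting intervals of the 2 genes overlapped (log2 -2.44 to -1.40 and -2.28 to -0.94). No interval was computed for the ratio of *Mmp3* to *Mmp10*, so whether it differed from that of LacZ samples was not determined. *Mmp3* and *Mmp10* are close paralogs, and how reads that match both were counted is not given in the sources used here, so the split between them is uncertain.

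**Figure D2:**
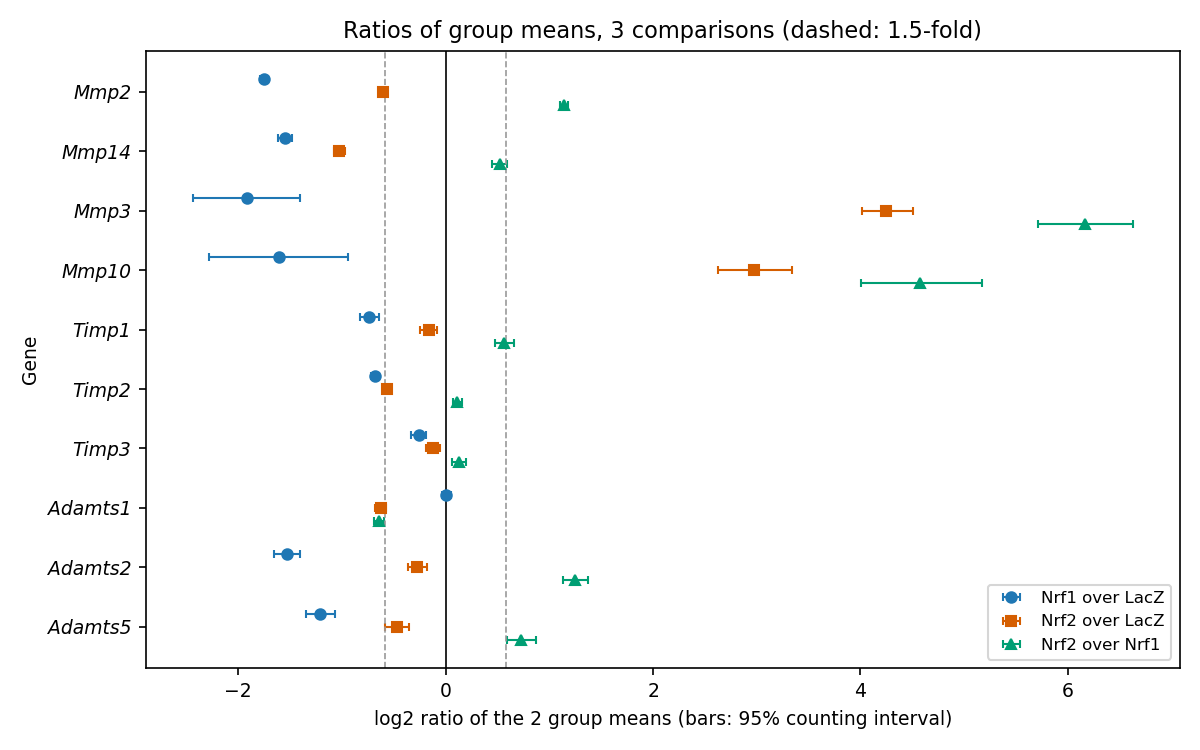
log2 ratios of the 2 group means (horizontal axis) for each gene in the 3 comparisons, with bars for 95% counting intervals and dashed lines at 1.5-fold. *Mmp3* and *Mmp10* reach 4.25 and 2.97 for Nrf2 over LacZ while the other 8 genes lie between -1.02 and -0.12, and *Adamts1* alone lies below 0 for Nrf2 over Nrf1.

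The 3 ADAMTS genes differed from each other. *Adamts1* had a mean of 2389 in LacZ and 2401 in Nrf1 samples, a ratio of 1.01 (counting interval 0.973 to 1.04) at a log2 ratio of 0.01, which turned to -0.05 once ratios were re-centred on the median of genes with a mean of at least 100. With Nrf2 it was 1.54-fold lower, with means of 2551 and 1653. It was also 1.56-fold lower in Nrf2 than in Nrf1 samples, the reverse of the other 9 genes, each of which was higher in its Nrf2 mean. *Adamts2*, the procollagen proteinase, was 2.89-fold lower with Nrf1 (means of 696 and 241) and 1.21-fold lower with Nrf2 (744 and 615). In the direct comparison it was 2.38-fold higher with Nrf2 (counting interval 2.19 to 2.59). *Adamts5* had means of 453 and 196 with Nrf1, 2.31-fold lower, and of 483 and 349 with Nrf2, 1.38-fold lower. The direct ratio was 1.66 for Nrf2 over Nrf1 (log2 ratio 0.73, counting interval 0.59 to 0.87).

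Among the inhibitors, *Timp1* had a mean of 829 in LacZ and 498 in Nrf1 samples, 1.67-fold lower. With Nrf2 the means were 886 and 790, 1.12-fold lower. Nrf2 samples were 1.48-fold higher than Nrf1 samples, with a counting interval of 1.39 to 1.58 that holds the 1.5-fold limit. *Timp3* differed least of the inhibitors in both comparisons with LacZ. Its mean was 1140 in LacZ and 952 in Nrf1 samples, 1.20-fold lower, and 1217 and 1116 with Nrf2, 1.09-fold lower. No inhibitor gene was past 1.5-fold with Nrf2. Whether differences of this size exceed the spread between libraries cannot be said from group means.

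The change of a proteinase gene relative to an inhibitor gene does not depend on how the groups were scaled against each other, and a few such pairs were computed after the values had been seen. With Nrf1 the ratio of *Mmp2* to *Timp2* was 0.477 times that of LacZ samples, and the ratio of *Mmp14* to *Timp2* was 0.547 times. With Nrf2 the same ratios were 0.975 and 0.727 times those of LacZ samples. The choice of inhibitor mattered: the ratio of *Mmp2* to *Timp1* was 0.496 times that of LacZ with Nrf1 and 0.739 times with Nrf2. The 2 proteoglycanase genes also differed in their ratios to *Timp3*. The ratio of *Adamts5* to *Timp3* was 0.518 times that of LacZ with Nrf1 and 0.788 times with Nrf2, and that of *Adamts1* to *Timp3* was 1.20 times with Nrf1 and 0.707 times with Nrf2. Relative to *Timp1*, the stromelysin genes were lower than in LacZ with Nrf1, 0.441 times for *Mmp3* and 0.546 times for *Mmp10*, and higher with Nrf2, 21.3 and 8.81 times.

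Other genes of matrix proteolysis were listed by symbol: the remaining Mmp genes, other Adamts and Adam genes, other inhibitors, the plasminogen system, and cathepsins. Of 71 symbols, 46 reached a mean of 10 in LacZ or Nrf1 samples. Of these 46 genes, 24 were lower and 5 were higher with Nrf1, with a median log2 ratio of -0.63. Among all genes with a mean of at least 10, 18.1% were lower and 11.9% were higher. With Nrf2, 17 of 45 genes were lower (10.9% of all genes) and 3 were higher (9.78%), with a median of -0.34. In Nrf2 over Nrf1, 12 of 45 genes were higher (12.3% of all genes) and 2, *Adamts18* and *Adamts4*, were lower (5.16%).

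The shares of all genes to set beside each list were 18.1% lower and 11.9% higher with Nrf1, and 10.9% and 9.78% with Nrf2. By list, 6 of 9 other Mmp genes were lower and 2 higher with Nrf1, and 4 were lower and 1 higher with Nrf2. Of 18 other Adamts and Adam genes, 7 were lower and 2 higher with Nrf1, and 5 of 17 were lower and 1 higher with Nrf2. Both other inhibitor genes with a mean of at least 10, *Reck* and *Tfpi2*, were lower with either factor. In the plasminogen system 5 of 10 genes were lower with Nrf1 and 0 higher, and 3 were lower and 1 higher with Nrf2. Of 7 genes in the cathepsin list, which also holds the inhibitor gene *Cst3*, 4 were lower and 1 higher with Nrf1, and 3 lower and 0 higher with Nrf2.

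The largest ratio among these genes at a mean of at least 100 was that of *Tfpi2*, which encodes a Kunitz-type proteinase inhibitor. *Tfpi2* was 5.55-fold lower with Nrf1 (means of 126 and 22.6) and 1.69-fold lower with Nrf2. *Serpine2*, which encodes an inhibitor of thrombin and plasminogen activators, was 3.68-fold lower with Nrf1 (681 and 185) and 1.26-fold lower with Nrf2. *Serpinb2*, the gene of plasminogen activator inhibitor 2, had a ratio of 1.00 with Nrf1 and was 3.60-fold higher with Nrf2 (means of 227 and 815). *Mmp12*, the macrophage elastase, was 2.85-fold lower with Nrf1 (1431 and 503) and 3.00-fold lower with Nrf2. *Mmp9*, the other gelatinase, was 2.64-fold lower with Nrf1 (102 and 38.5) and 1.21-fold lower with Nrf2. *Mmp23*, *Plg*, *Ctss*, *Ctsk* and *Ctsz* were 2.84- to 3.48-fold lower with Nrf1 and 1.79- to 2.40-fold lower with Nrf2.

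*Mmp13*, the gene of collagenase-3, was picked out after its values had been seen because its ratios had opposite signs like those of the stromelysins. Its mean was 16.5 in LacZ and 6.82 in Nrf1 samples (log2 ratio -1.27), and 17.6 in LacZ and 53.4 in Nrf2 samples (log2 ratio 1.60). These means rest on about 48 and 21 reads and on 48 and 179 reads. *Mmp15*, a membrane-type proteinase gene like *Mmp14* and also picked out afterwards, was 1.79-fold higher with Nrf1 (751 and 1341) and 1.27-fold higher with Nrf2. In contrast to *Mmp14*, it was thus higher than in LacZ samples in both comparisons, though within the 1.5-fold limit with Nrf2. Other Mmp genes went either way. *Mmp24* was also higher in both (log2 ratios of 0.66 with Nrf1 and 0.24 with Nrf2). *Mmp16* and *Mmp17* were lower in both (-0.60 and -1.24 with Nrf1, -0.37 and -0.62 with Nrf2). These 3 genes were also named after their values had been seen.

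**Figure D3:**
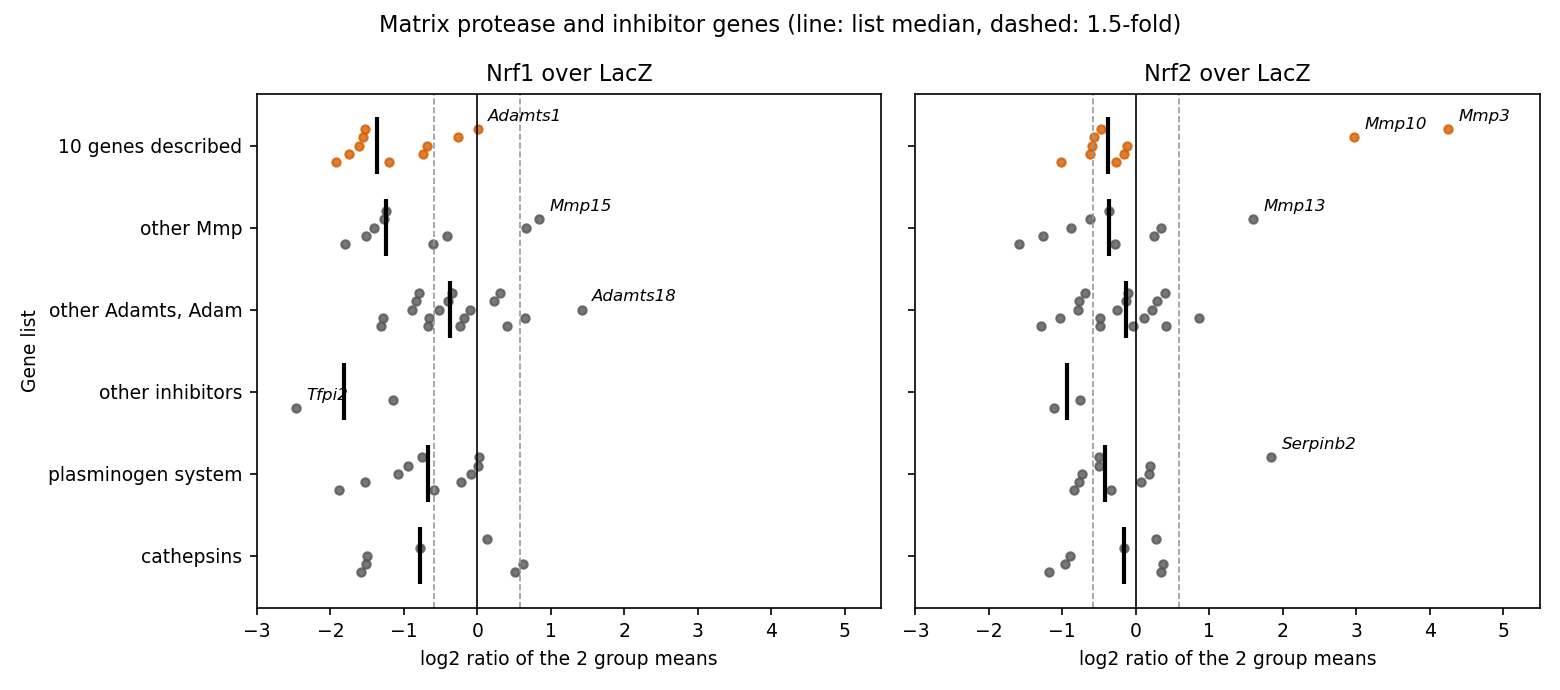
log2 ratios over LacZ (horizontal axis) of the 10 genes (orange) and of the other listed matrix protease and inhibitor genes with a mean of at least 10 (grey), 1 point for each gene, with the list median as a black line and dashed lines at 1.5-fold. *Mmp3*, *Mmp10*, *Serpinb2* and *Mmp13* lie to the right with Nrf2, and most other points lie left of 0 with either factor.

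In cultures of this kind other heart cells remain beside the cardiomyocytes, and in bulk RNA fewer cells of a type and less RNA per cell cannot be told apart. Marker genes of 5 cell types were therefore read in the same tables, and all listed markers were above 0 in every group. Among all genes with a mean of at least 10, 18.1% were over 1.5-fold lower with Nrf1 and 10.9% with Nrf2. Of 11 fibroblast markers 11 were over 1.5-fold lower with Nrf1 and 9 with Nrf2, with median log2 ratios of -1.91 and -0.99. Their summed means were 118769 in LacZ and 30856 in Nrf1 samples, and 126837 in LacZ and 67515 in Nrf2 samples. Of the fibroblast markers, *Col1a1* and *Col3a1*, whose procollagens ADAMTS2 and related enzymes process, had log2 ratios of -1.93 and -2.07 with Nrf1 and of -0.88 and -0.99 with Nrf2. The 11 markers ranged from -2.43 to -0.92 with Nrf1, and 6 of the 10 genes lay within that range: *Mmp3*, *Mmp2*, *Mmp10*, *Mmp14*, *Adamts2* and *Adamts5*, at -1.92, -1.75, -1.61, -1.55, -1.53 and -1.21. *Timp1*, *Timp2* and *Timp3*, at -0.74, -0.68 and -0.26, lay above the range but below 0. With Nrf2 the markers ranged from -1.83 to -0.40, and *Mmp14*, *Adamts1*, *Mmp2*, *Timp2* and *Adamts5*, at -1.02 to -0.47, lay within it. The part of the fibroblast markers in these results was not tested.

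The shares over all genes were again 18.1% lower and 11.9% higher with Nrf1, and 10.9% and 9.78% with Nrf2. Of 14 leukocyte markers with a mean of at least 10, 13 were lower with each factor, with medians of -1.47 and -1.07. These 14 markers ranged from -1.72 to 0.43 with Nrf1 and from -1.60 to 0.08 with Nrf2. Most of the 10 genes lay within these ranges, but *Csf1r* alone set the upper end of both. The next highest markers were *Mrc1* at -0.95 with Nrf1 and *Cd68* at -0.71 with Nrf2. Without *Csf1r* the range held *Mmp10*, *Mmp14*, *Adamts2* and *Adamts5* with Nrf1, and *Mmp14* with Nrf2. The part of the leukocyte markers was not tested either. The summed means of all 15 listed leukocyte markers were 2556 in LacZ and 1254 in Nrf1 samples, and 2731 in LacZ and 1378 in Nrf2 samples. Of 9 endothelial markers 6 were lower with Nrf1, and 5 were lower and 1 higher with Nrf2, with sums of 1447 and 1073 and of 1545 and 1183. Of 7 smooth muscle markers 3 were higher and 2 lower with Nrf1, and 2 were higher and 0 lower with Nrf2, and the sums went from 47642 to 87305 and from 50872 to 72100. These sums are carried by *Acta2*, *Tagln* and *Des*, the 3 markers higher with Nrf1 (log2 ratios of 0.84, 0.83 and 1.31), and cardiomyocytes also express these genes, *Des* in the adult heart and *Acta2* and *Tagln* in the immature heart. The 2 markers lower with Nrf1, *Myh11* and *Rgs5*, named after their values had been seen, had log2 ratios of -1.01 and -1.89. The cardiomyocyte markers, led by *Actc1*, *Tnnt2* and *Actn2*, had summed means of 163675 in LacZ and 161450 in Nrf1 samples, and of 174773 in LacZ and 192831 in Nrf2 samples. Of 14 such markers 2 were higher and 4 lower with Nrf1, and with Nrf2 all 14 stayed within 1.5-fold.

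The ratios of *Mmp3* and *Mmp10* with Nrf2, 4.25 and 2.97 on the log2 scale, lay above those of all listed markers, of which the highest was 0.82. Nor did *Adamts1* with Nrf1, at a log2 ratio of 0.01, lie among the fibroblast markers. In Nrf2 over Nrf1, 12.3% of all genes with a mean of at least 10 were higher and 5.16% were lower. Of the 11 fibroblast markers 8 were higher and 1 was lower, with a median of 0.77, beside 0.65 for the 10 genes. The same comparison had 5 of 14 cardiomyocyte, 5 of 13 leukocyte, 1 of 9 endothelial and 3 of 7 smooth muscle markers higher. In these 4 lists 0 were lower, which lists this short can show at a share of 5.16%.

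**Figure D4:**
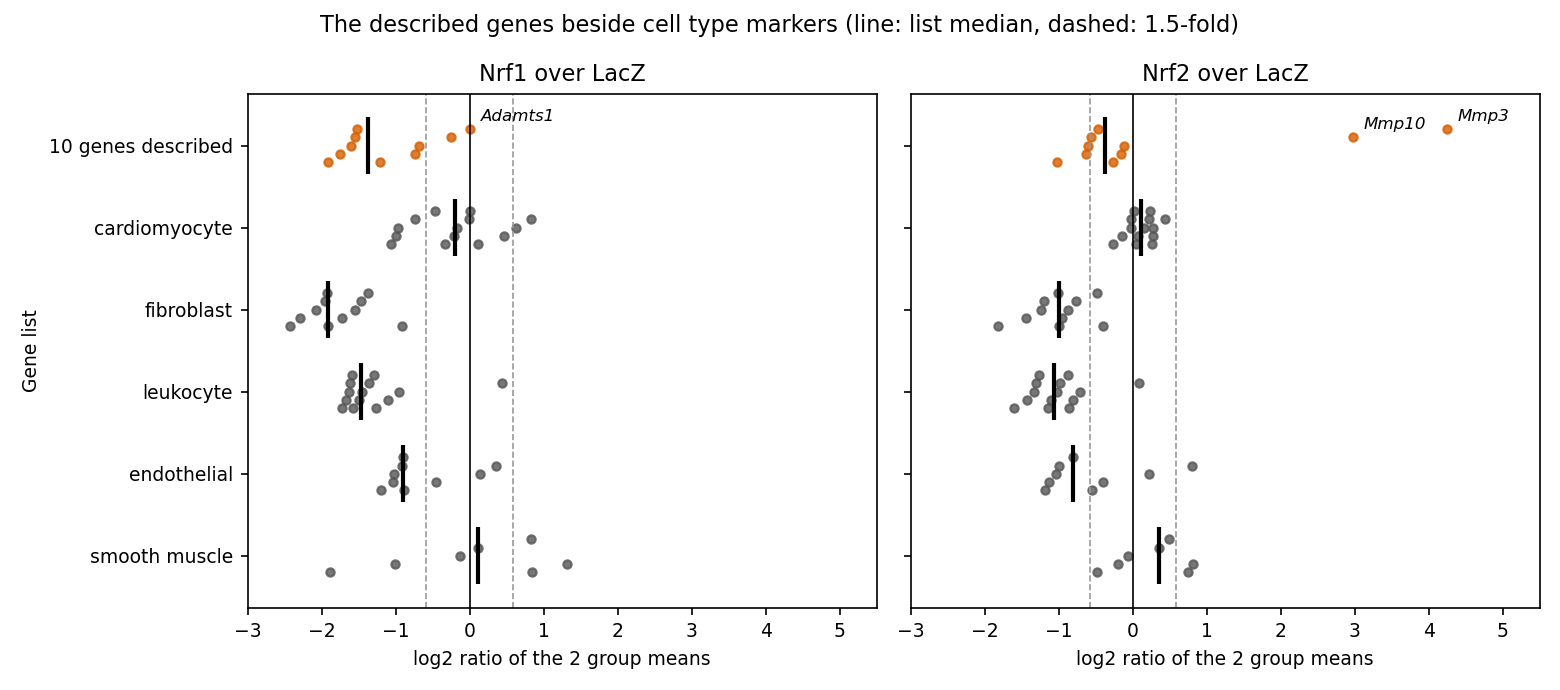
log2 ratios over LacZ (horizontal axis) of the 10 genes (orange) beside marker genes of 5 cell types (grey), 1 point for each gene, with list medians as black lines and dashed lines at 1.5-fold. Fibroblast and leukocyte markers lie mostly left of the lower dashed line in both panels, and *Mmp3* and *Mmp10* lie far to the right of all markers with Nrf2.

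Transcription factors of the AP-1 family are known regulators of stromelysin and collagenase genes, and 7 of their genes were read as background. With Nrf1, 3 were lower (18.1% of all genes with a mean of at least 10) and 1, *Fosl1*, was higher (11.9%). The median log2 ratio of the 7 genes was -0.50. With Nrf2, 0 were lower (10.9% of all genes) and 1, again *Fosl1*, was higher (9.78%), with a median of -0.19. *Fosl1*, named after its values had been seen, had means of 191 and 316 with Nrf1 (log2 ratio 0.73) and of 204 and 486 with Nrf2 (log2 ratio 1.26). The part of AP-1 genes in the ratios of *Mmp3* and *Mmp10* was not tested. *Jund*, *Jun* and *Junb*, the AP-1 genes with the highest LacZ means, had log2 ratios of 0.02, -0.50 and -0.64 with Nrf1 and of -0.19, -0.12 and -0.47 with Nrf2. In Nrf2 over Nrf1 all 7 genes were within 1.5-fold.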

How the data were processed

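RNA of NRVMs infected with LacZ, Nrf1 or Nrf2 adenovirus was sequenced in 9 libraries. According to the submitters' processing notes and the study's methods, reads were checked with FastQC 0.11.4, aligned to rat Rnor 6.0 with HISAT2 2.0.4, stripped of duplicates with SAMtools 0.1.18, which can lower the counts of abundant genes, and counted with featureCounts 1.6.0, and edgeR 3.20.5 is named for the comparisons. The deposited signal is, for each of 3 pairs of groups, the authors' mean over a group's libraries of counts divided by size factors. The tables also hold the authors' fold changes, p-values and adjusted p-values, which were not used. There were 0 unused columns of single samples.

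Ratios of the deposited group means were computed within each table with Python 3.11.15, pandas 2.3.3 and SciPy 1.17.1, without a pseudocount. Genes over 1.5-fold apart were counted, among all genes and the wider lists where the higher of the 2 means was at least 10, and among the members without a filter. The total number of reads per library is not known here. Of the means under 2, 100% were sums of whole reads in the 3 libraries, to a tolerance of 1e-05, with each library's read worth 0.278 to 0.400 of a normalized count. Reads behind a mean were taken as the mean times the sum of the libraries' size factors. Fold calls, steps and counting intervals were tested on simulated counts with counting error only. The planted changes were well past 1.5-fold and at means of at least 100. That setting holds no spread between libraries and no change near the limit, so it says nothing about calls near 1.5-fold.

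Members and lists were chosen with earlier results of these data known. Other genes were named by rule, the 10 with the largest ratio over LacZ at a mean of at least 100, except where stated. No rat sequences, gene lengths or coordinates were used. The alternatives were a fold limit of 2, other minimum means, a pseudocount of 1, re-centring on the median of genes with a mean of at least 100, and the sum of the other tables.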

Additional observations from a re-analysis of the deposited data

How the results depend on the processing

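No paired analysis was possible because the tables hold group means, and for the same reason leaving out a library could not be done. All 30 log2 ratios of the 10 genes lay within their counting intervals with a pseudocount of 1. Re-centring on the median of genes with a mean of at least 100 (0.05, 0.01 and -0.03 on the log2 scale) moved 3 of 30 outside that interval and changed the sign of 1, *Adamts1* with Nrf1 (-0.05). Of the member counts it changed that of genes higher in Nrf2 over Nrf1, from 5 to 6, as *Timp1* went from a log2 ratio of 0.56 to 0.60. Summing the other 2 tables moved Nrf2 over LacZ by at most -0.01. The 3 tables hold the same libraries under different scaling, so this agreement was set in advance and is no separate support. Over 7814 genes with high means the offset was 0.005 to 0.010. With a fold limit of 2, 6 of the 10 genes were lower with Nrf1, 1 was lower and 2 higher with Nrf2, and 0 were lower and 4 higher in Nrf2 over Nrf1. The counting interval of 5 of 30 ratios held the 1.5-fold limit: *Mmp2*, *Adamts1* and *Timp2* with Nrf2, and *Mmp14* and *Timp1* in Nrf2 over Nrf1. With a fold limit of 2, the other protease and inhibitor genes counted 1 higher (4.23% of all genes) and 15 lower (9.8%) with Nrf1. They counted 6 lower with Nrf2 (4.27%), and 5 higher (5.86%) and 1 lower (1.23%) in Nrf2 over Nrf1. Without a minimum mean, 10 of 55 were higher with Nrf1, 8 of 55 with Nrf2, and 5 of 54 were lower in Nrf2 over Nrf1. Shares of all genes without a minimum mean were not computed, so these 3 counts have no share beside them. The genes so added as higher over LacZ were *Mmp1*, *Mmp11*, *Mmp20*, *Mmp28* and *Timp4*, all with means under 10. At a mean of at least 100 the count lower in Nrf2 over Nrf1 was 0. These changes follow from the limits themselves, and the other counts stayed within 1.5 times. Depth limits *Mmp10* and *Mmp3* most, at about 27 and 42 reads with Nrf1.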
